A study of Mus musculus with 6 samples.

Results

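Atoh8 and the E-protein genes Tcf3, Tcf4 and Tcf12 are 4 of the 34981 genes in the deposited table. They were taken by name and matched through their Ensembl identifiers, and all 4 were found. Atoh8 was selected on its difference between the BMP2 and PBS libraries of this table, its transcripts being already known to be higher with BMP2, so that difference is given as a description with no test. The E-protein genes were listed for what their proteins do, with results of the same comparison in view. The libraries come from B16F10 cells, a mouse melanoma line, of which 500 were plated in 50 µl of Matrigel, a basement membrane extract, and grown as spheroids. Cultures received either 100 ng/ml BMP2, a bone morphogenetic protein that signals through SMAD1, SMAD5 and SMAD9, or PBS, the vehicle, for 10 days. Each of 3 batches holds 1 culture of either kind, so each group has 3 libraries, and no genetic change is given in the labels for either group. Whether a batch began from separately kept cells is not stated, and all cultures are of a single line.

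E proteins are basic helix-loop-helix (bHLH) transcription factors that are made in most cells and bind a short DNA element, the E-box, as pairs with themselves or with tissue-restricted bHLH partners. The ID proteins have the helix-loop-helix but no basic region, so they bind E proteins and keep them off DNA, and their genes are classic targets of BMP signalling through SMAD proteins. Atoh8 encodes a bHLH protein of the atonal group, and its gene is known to respond to BMP and SMAD signalling in endothelial cells and liver. Tcf4 in this text is the E-protein gene and not Tcf7l2, the Wnt effector for which the same short name is used, and Tcf3 is likewise not Tcf7l1.

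The stretches just before the start of 3 of the genes are shown for their E-boxes. E proteins and their partners bind this element, and ID proteins keep E proteins off it. Each runs 5′ to 3′ over the 250 bases before a RefSeq start on GRCm38.p6, with each match to CANNTG, the E-box, in capitals. Of 4 genes, 3 had an entry in the RefSeq promoter table, and the stretch for Tcf12 is that of the farthest upstream of its 3 listed starts.
Atoh8, minus strand, chr6:72235578-72235827: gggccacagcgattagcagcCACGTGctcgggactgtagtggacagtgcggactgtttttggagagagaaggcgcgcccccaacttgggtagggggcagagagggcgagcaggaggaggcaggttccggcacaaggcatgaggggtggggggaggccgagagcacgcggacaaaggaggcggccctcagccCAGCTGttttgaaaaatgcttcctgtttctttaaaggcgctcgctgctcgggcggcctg
Tcf3, minus strand, chr10:80433636-80433885: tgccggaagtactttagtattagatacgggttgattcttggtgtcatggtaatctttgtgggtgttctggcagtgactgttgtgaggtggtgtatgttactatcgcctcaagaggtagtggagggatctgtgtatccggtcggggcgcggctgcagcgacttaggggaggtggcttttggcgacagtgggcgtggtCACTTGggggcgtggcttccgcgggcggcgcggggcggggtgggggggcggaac
Tcf12, minus strand, chr9:72111820-72112069: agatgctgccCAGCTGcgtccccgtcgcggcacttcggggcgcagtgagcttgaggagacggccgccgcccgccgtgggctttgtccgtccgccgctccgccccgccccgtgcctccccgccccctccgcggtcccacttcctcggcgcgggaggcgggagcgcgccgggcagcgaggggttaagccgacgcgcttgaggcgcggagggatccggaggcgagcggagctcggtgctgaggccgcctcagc
The Atoh8 stretch held 2 E-boxes, CACGTG beginning at position -230 and CAGCTG at -59, counted from the start. The Tcf3 stretch held 1, CACTTG at -54, and the Tcf12 stretch 1, CAGCTG at -240. Across 32851 stretches of the same length in the table, 66.2% held at least 1 CANNTG, 13.0% held CAGCTG and 6.02% held CACGTG, all of which read the same on both strands in their fixed letters. Neither of the letter strings associated with SMAD proteins that were searched on both strands, GGCGCC and GTCTG, occurred in these 3 stretches, and they occurred in 9.59% and 42.2% of all stretches. These matches describe the letters only.

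Library totals lay between 27821911 and 36856498 estimated counts. The PBS library of batch 1 stood apart, at -65.6 on the first principal component (54.2% of the variance) against -15.5 to 46.5 for the others, and had the lowest scaling factor, 0.872. Of 8 melanocytic markers, 8 were detected and together took 23675 to 26342 CPM (counts scaled to library size, with TMM factors) in PBS and 28893 to 39140 with BMP2. Of the 8 endothelial markers, Cdh5 and Tek were at 0 in all 6 libraries, and the list summed to 6.54 to 9.56 CPM in PBS and 5.07 to 16 with BMP2. Leukocyte markers summed to 0.748 to 1.66 and 1.42 to 3.49 CPM, fibroblast markers to 5.11 to 10.6 and 3.56 to 7.50, and keratinocyte markers to at most 0.0599. The melanocytic sums did not overlap between groups, while taken singly 2 of the 8 markers had BMP2 above PBS without overlap, against 6.42% of all tested genes. All 8 melanocytic markers were higher with BMP2 in each batch, as were 22.7% of all tested genes. By unadjusted edgeR p, 3 lay below 0.05 without a batch block in the model and 8 with it, against 5.38% and 17.0% of all tested genes. Of the 8 markers, 0 passed without the block and 1, Gpr143, rose with it (log2 fold change 1.75, SE 0.15, edgeR adjusted p 0.0190). The part of these marker differences in the results below was not tested. In bulk RNA, more transcripts per cell and more cells with transcripts cannot be told apart.

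Atoh8 (ENSMUSG00000037621, GRCm38 chromosome 6, 72206177 to 72235577, minus strand) was at or near the counting floor in PBS and low but present with BMP2. In PBS its level was 0, 0.225 and 0.0898 CPM in batches 1, 2 and 3, where 3 counts correspond to 0.0976, 0.0843 and 0.0898 CPM. With BMP2 it was 1.61, 6.51 and 8.56 CPM. The lowest BMP2 library stood above the highest PBS library, so the groups did not overlap, as was the case with BMP2 above PBS for 6.42% of all tested genes. The BMP2 library of batch 1 was the lowest of its group, and the other 2 lay near each other.

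The rounded counts behind these levels were 47 against 0 in batch 1, 223 against 8 in batch 2 and 343 against 3 in batch 3. In batch 1 the exact 95% interval for the ratio had a lower limit of 12.9, and no upper one. Set against a chosen floor of 3 counts for the PBS library, the level with BMP2 was 16.5-fold higher. That value leaves out the counting error of the 47 counts and is no lower limit. The ratio was 29.0 in batch 2 (95% interval 14.4 to 67.9) and 95.3 in batch 3 (32.4 to 465). Over all batches, 613 counts with BMP2 stood against 11 in PBS, a ratio of 53.7 (29.8 to 108). These intervals are exact binomial ones and cover counting error only. Those of batches 2 and 3 overlap, so the counts do not separate the sizes of the difference in these batches.

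The fitted log2 fold change of Atoh8, BMP2 against PBS, was 5.64 (SE 0.98), and 5.74 (SE 0.56) with batch as a block. Without the PBS library of batch 1, where Atoh8 had no counts, it was 5.10. It passed the filter on low counts only through the BMP2 libraries, so a difference was built into its being tested. Its transcripts shared 0% of their 31-mers with other annotated genes, and no annotated gene overlapped it.

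**Figure D1:**
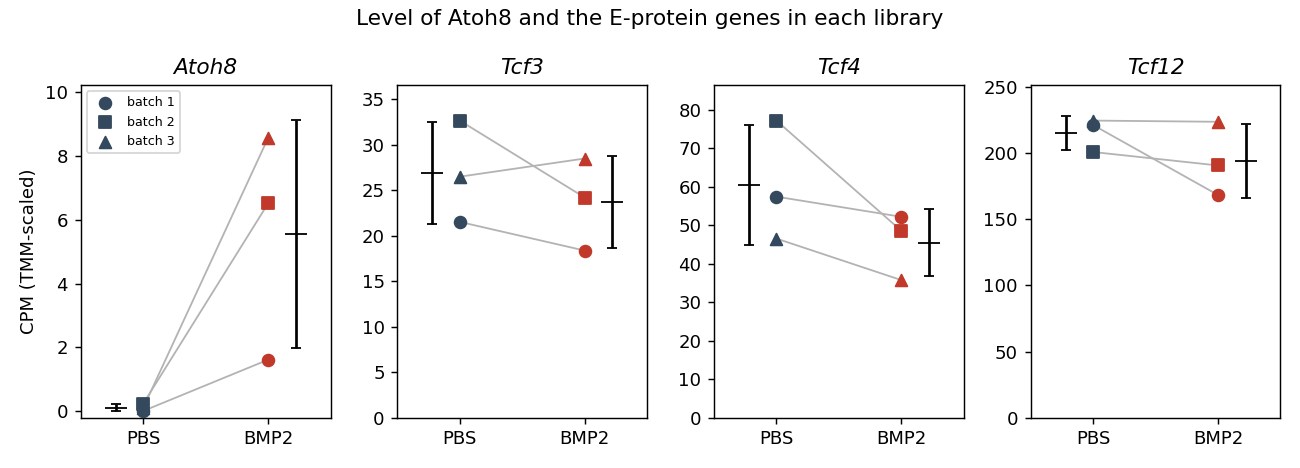
Level of the 4 genes in CPM (linear axes) in PBS (dark) and BMP2 (red) libraries, with lines joining libraries of a batch and bars for mean ± SD (n = 3). Atoh8 is at most 0.225 CPM in PBS and 1.61 to 8.56 with BMP2, while the groups overlap for Tcf3, Tcf4 and Tcf12.

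Taken singly, each E-protein gene had levels that overlapped between the BMP2 and PBS libraries. None passed the edgeR test in either model: 0 of these 3 genes had an adjusted p below 0.05, against 0.0464% of all tested genes without the batch block and 0.735% with it. By unadjusted p, 0 of the 3 lay below 0.05 without the block and 1, Tcf4, with it, against 5.38% and 17.0% of all tested genes. The Wald test of DESeq2 called 0 of the 3, against 1.03% of all genes. Atoh8 was the 1 of 4 members below the threshold with the block and was above it without, which is read as description only.

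Tcf12 (ENSMUSG00000032228, chromosome 9, 71842688 to 72111871, minus strand), which encodes HEB, was at 221, 201 and 225 CPM in the PBS libraries of batches 1, 2 and 3. With BMP2 it was at 168, 191 and 224 CPM. The BMP2 library of batch 1 was the lowest of the 6, and in batch 3 the values were nearly equal. The means were 216 ± 12.9 in PBS and 194 ± 27.8 CPM with BMP2 (SD, n = 3). The log2 fold change was -0.15 (SE 0.19, edgeR adjusted p 0.898). With the block it was -0.16 (SE 0.14, adjusted p 0.584).

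Tcf4 (ENSMUSG00000053477, chromosome 18, 69343356 to 69689079, plus strand), an E-protein gene with a large role in the nervous system and in dendritic cells, was at 57.4, 77.2 and 46.5 CPM in PBS. With BMP2 it was at 52.2, 48.5 and 35.7 CPM. The value was lower with BMP2 in each batch, as for 21.1% of all tested genes, while the groups overlapped because the PBS library of batch 3 lay below the BMP2 libraries of batches 1 and 2. The log2 fold change was -0.41 (SE 0.25, edgeR adjusted p 0.883), and -0.40 (SE 0.15, adjusted p 0.258) with the block. The difference was largest in batch 2, at -0.66 on the scale of log2(CPM + 0.5), against -0.14 in batch 1 and -0.38 in batch 3. Without the PBS library of batch 2, the highest of the 6, the log2 fold change was -0.19.

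Tcf3 (ENSMUSG00000020167, chromosome 10, 80409514 to 80433647, minus strand), which encodes the splice forms E12 and E47, was at 21.5, 32.6 and 26.5 CPM in PBS. With BMP2 it was at 18.3, 24.2 and 28.5 CPM. It was lower with BMP2 in batches 1 and 2 and higher in batch 3, and the groups overlapped over most of their range. The log2 fold change was -0.18 (SE 0.25, edgeR adjusted p 0.903), or -0.19 (SE 0.17, adjusted p 0.587) with the block. The table holds 1 value per gene, so splice forms, such as E12 and E47, are not separated.

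These tests do not show that the 3 genes are equal in both groups: a fall of the size fitted for Tcf4 would be a level at 0.753 of that in PBS. The 31-mers shared with other genes came to 0% for Tcf3, 0.544% for Tcf4 and 0.65% for Tcf12. No exon of another annotated gene overlapped those of Tcf3, Tcf4 or Tcf12.

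Levels can be compared between genes only per length. Per kb of the median protein-coding transcript, Tcf12 was highest, at 50.0 ± 3.0 CPM in PBS and 45.1 ± 6.5 with BMP2. Tcf4 was at 25.7 ± 6.6 and 19.4 ± 3.7, Tcf3 at 9.46 ± 1.96 and 8.33 ± 1.79, and Atoh8 at 0.0445 ± 0.0481 and 2.36 ± 1.52 (SD, n = 3). On that scale no library of Tcf12 overlapped those of Tcf4, or of Tcf4 those of Tcf3. Per kb of all annotated exons summed, Tcf12 was again highest, at 13.9 ± 0.8 in PBS, but Tcf3 (6.65 ± 1.38) stood above Tcf4 (2.20 ± 0.57). The lengths differ most for Tcf4, at 27382 bases of exons against 2349 for the median coding transcript. The order of Tcf3 and Tcf4 therefore depends on the length used, and the first place of Tcf12 does not. Tcf12 made up 51.2% to 64.2% of the summed E-protein level in PBS and 57.7% to 67.3% with BMP2.

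The ID genes stood far higher against the E-protein genes when BMP2 was present. Per kb of coding transcript, Id1 to Id4 summed to 32.9, 67.8 and 52.4 CPM in PBS and to 174, 394 and 642 CPM with BMP2 in batches 1, 2 and 3. Tcf3, Tcf4 and Tcf12 summed to 83.4, 91.0 and 81.2 CPM in PBS and to 67.7, 73.4 and 77.1 CPM with BMP2. The ratio of ID to E-protein transcripts was thus 0.394, 0.745 and 0.645 in PBS and 2.57, 5.37 and 8.32 with BMP2. It was below 1 in each PBS library and above 1 in each BMP2 library on this scale. With exons summed as the length, the ratio was 0.882, 1.54 and 1.21 in PBS and 5.64, 10.9 and 15.6 with BMP2, so its level relative to 1 depends on the length while its difference does not. The E-protein sums per kb of coding transcript were lower with BMP2 and did not overlap between groups. Among single tested genes, 5.72% had BMP2 below PBS without overlap. With exons summed the E-protein sums did overlap, at 17.3 to 22.8 CPM with BMP2 and 21.7 to 23.8 in PBS. Averaged on the log2 scale over libraries, the difference in the ratio was 3.06 with exons summed and 3.08 with coding transcripts. Most of the ID sum was Id2, at 84.3% to 88.0% with BMP2 and 78.4% to 98.6% in PBS. That ID genes were higher with BMP2 was known before this ratio was formed, so it is given without a test, and it counts transcripts, not protein.

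**Figure D2:**
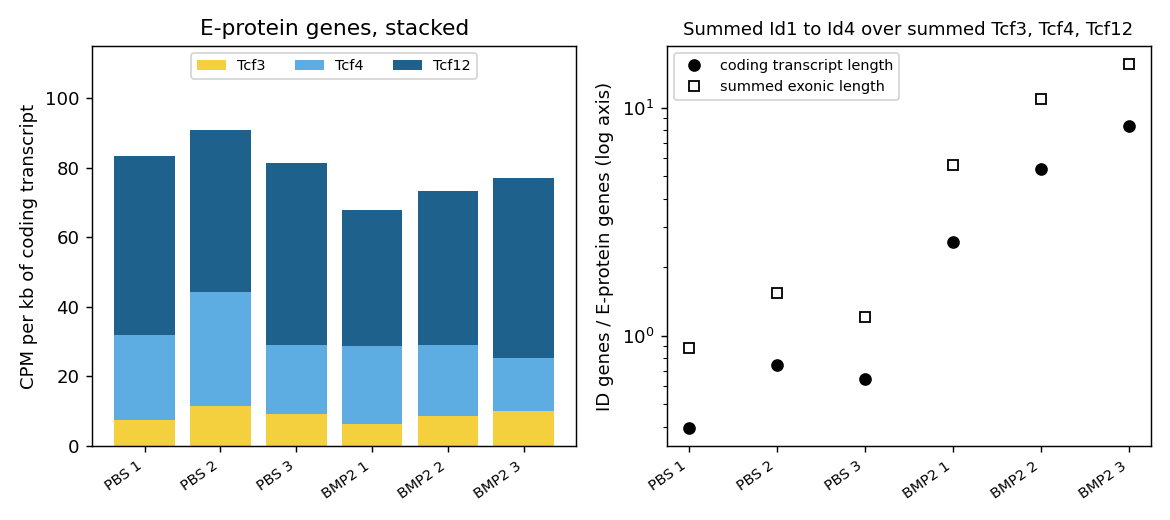
Left, CPM per kb of coding transcript for Tcf3, Tcf4 and Tcf12, stacked, in each library. Right, the summed level of Id1 to Id4 divided by that of the 3 E-protein genes (log axis) with either length, which is 0.394 to 0.745 in PBS and 2.57 to 8.32 with BMP2 for coding transcripts.

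Id2, which passed with the block (edgeR adjusted p 0.0152), was at 32.7, 79.9 and 65.7 CPM in PBS and at 186, 438 and 717 CPM with BMP2. The BMP2 libraries of Id2 ranked as those of Atoh8 did, lowest in batch 1 and highest in batch 3. Id1 and Id3 had log2 fold changes of 3.28 (SE 0.71) and 3.80 (SE 0.78) with groups that did not overlap, and Id4 was too low to be tested. Of the 3 tested ID genes, 0 passed without the block, where 0.0464% of all tested genes did, and 1 rose with it, against 0.371% of all genes. DESeq2 called 3 of 3 as higher, where it called 62 of 12672 genes as higher in all. The ID genes were known to be higher with BMP2, so these counts and the p of Id2 are description and no test.

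The genes whose levels followed that of Atoh8 most closely over the 6 libraries were led by Smad9, a receptor-activated SMAD that carries BMP signals. Pearson's r of log2(CPM + 0.5) was 0.993 for Smad9, 0.985 for Smad6, which encodes an inhibitory SMAD, and 0.983 for Id2. Between them stood Itga4, an integrin subunit gene (0.991), Cfap126 (0.988), the aquaporin gene Aqp11 (0.988), Wls, needed for Wnt secretion (0.987), and Mpped2 (0.987). Smad9 was at 1.04, 1.43 and 1.11 CPM in PBS and 7.63, 17.0 and 26.4 CPM with BMP2. Itga4 was at 44.3, 49.9 and 48.9 CPM in PBS and 82.8, 105 and 119 CPM with BMP2, a log2 fold change of 1.10. For Smad9 and Itga4 the BMP2 libraries ranked as for Atoh8. Wls had a log2 fold change of 0.33, with 296 to 310 CPM in PBS and 344 to 402 with BMP2. Of 10802 genes compared, 126 had r above 0.9 with Atoh8, against 112 with Tcf3, 104 with Tcf4 and 76 with Tcf12. The 6 points share their group, batch and depth.

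**Figure D3:**
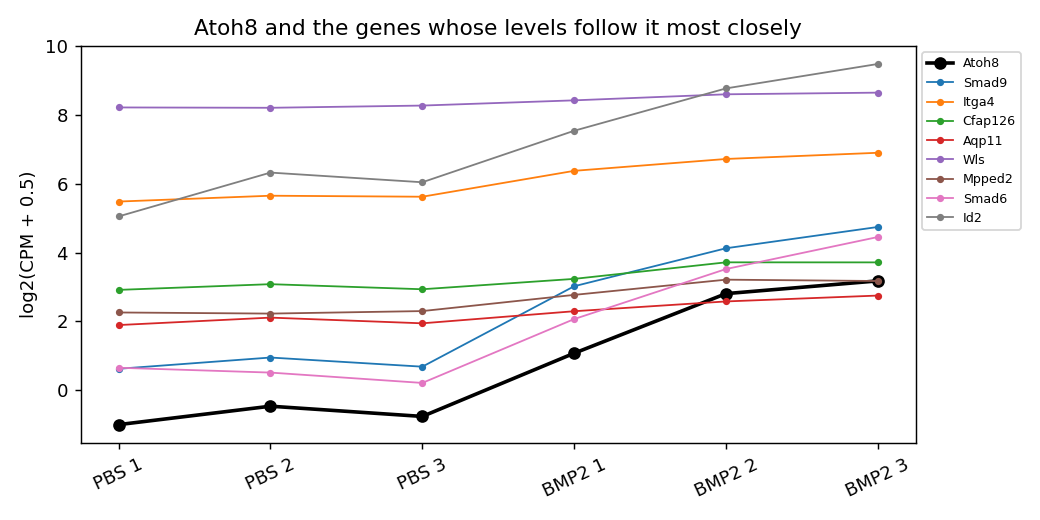
Level of Atoh8 and of the 8 genes with the highest Pearson correlation to it, as log2(CPM + 0.5), in each library. Lines only join the values of a gene. All 9 genes are higher in each BMP2 library than in any PBS library, as are 6.42% of all tested genes. This is no separate result, as 8 were picked by likeness to Atoh8, itself selected on this difference.

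For the E-protein genes the closest genes were of other kinds. Tcf12 was followed by Eif5a, a translation factor gene (r = 0.990), Fam172a (0.987), Pde4dip (0.982) and Elavl1, which encodes an RNA-binding protein (0.980). Tcf3 was followed by Mapk1ip1l (0.997), the MAP kinase gene Mapk7 (0.993) and Prr14 (0.983). Tcf4 was followed by Snrpd3, a splicing factor gene (0.993), the helicase gene Wrn (0.982), Fosb, a subunit of AP-1 (0.978), and Asna1 (0.977). Fosb, like Tcf4, was highest in the PBS library of batch 2, at 142 CPM, and lowest in the BMP2 library of batch 3, at 1.25. Among the members themselves, r over the 6 libraries was 0.53 for Tcf12 with Tcf3, 0.14 for Tcf4 with Tcf3 and -0.27 for Tcf12 with Tcf4. With Atoh8 it was 0.00055 for Tcf3, -0.65 for Tcf4 and -0.23 for Tcf12. Taken on deviations from the group means, r with Atoh8 was 0.85 for Tcf3, 0.74 for Tcf12 and -0.34 for Tcf4, and among the E-protein genes it was 0.44 for Tcf12 with Tcf3, -0.083 for Tcf4 with Tcf3 and -0.84 for Tcf12 with Tcf4. The values over all libraries and within groups thus differ in sign or size for several pairs, over 6 libraries that share batch and depth. Atoh8 was at 0 to 0.225 CPM in PBS, below the added 0.5. Its deviations from the group means therefore came mostly from the BMP2 libraries.

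Tissue-restricted bHLH partners of E proteins were mostly at or near 0. Of 45 such genes in the table, such as the muscle, neural and mesodermal factors, 43 did not pass the filter and 29 of these were at 0 in all 6 libraries. The highest value among the 43 was 0.716 CPM, for Ascl4. The 2 tested were Tcf24 and Tal1, a factor of blood formation. Tcf24 was at 1.01 ± 0.34 CPM with BMP2 against 0.375 ± 0.128 in PBS (SD, n = 3), with a log2 fold change of 1.42 (SE 0.51, edgeR adjusted p 0.839). Tal1 was at 0.491 ± 0.243 against 0.973 ± 0.427 CPM (adjusted p 0.883). In both models 0 of these 2 passed, while 1, Tcf24, had an unadjusted p below 0.05 without and with the block, against 5.38% and 17.0% of all tested genes, and DESeq2 called 0.

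In the other bHLH families no gene passed with edgeR in either model. By unadjusted p without and with the block, 0 and 3 of 6 HES, HEY and DEC genes, 4 and 7 of 16 leucine zipper genes and 3 and 5 of 13 bHLH-PAS genes lay below 0.05, against 5.38% and 17.0% of all tested genes. DESeq2 called 1 gene of these families, Myc, as lower, against 1.03% of all genes in either direction. Of 6 tested HES, HEY and DEC genes, which encode repressors, 0 passed in either model, with a median log2 fold change of -0.35 against 0.0101 over all tested genes. That median was -0.087 without BMP2 replicate 3 and -0.61 without BMP2 replicate 2. Bhlhe41 was at 301 ± 72.7 with BMP2 and 431 ± 54.5 CPM in PBS, and Bhlhe40 at 260 ± 64.9 and 308 ± 53.1. Hes1, the Notch effector, stood at 3.66 ± 1.52 CPM with BMP2 and 1.88 ± 0.71 in PBS. It lay higher with BMP2 in each of the 3 batches, as did 22.7% of all tested genes. Hes7 was at 2.50, 2.10 and 0.250 CPM with BMP2 against 8.52, 2.22 and 1.14 in PBS. Its log2 fold change was -1.30, but -0.074 without the PBS library of batch 1, the highest of the 6. That of Hes1 was 0.96, and 0.58 without the BMP2 library of batch 2.

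Of 16 tested bHLH leucine zipper genes 0 passed in either model, and the median was -0.25. Myc was at 15.9 ± 3.2 CPM with BMP2 and 33.5 ± 7.9 in PBS, Mxd1, an antagonist of MYC, at 16.1 ± 1.2 and 24.3 ± 2.4, and Mitf, the melanocyte regulator, at 298 ± 29.0 and 199 ± 9.0. The groups did not overlap for these 3 genes, and edgeR adjusted p with the block was 0.125, 0.156 and 0.142. Of 13 tested bHLH-PAS genes, which include the hypoxia-inducible factors and the circadian regulators, 0 passed and the median was -0.24. Hif1a was at 508 ± 130 CPM with BMP2 and 311 ± 71.6 in PBS, Clock at 73.7 ± 6.7 and 54.5 ± 5.0, and Npas3 at 1.06 ± 0.33 and 2.34 ± 0.90. Their groups did not overlap either. Groups without overlap made up 6.42% of tested genes with BMP2 above and 5.72% with BMP2 below.

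Of 10 tested genes for E-protein cofactors 0 passed in either model, and the median was -0.067. By unadjusted p 1 lay below 0.05 without and with the block, against 5.38% and 17.0% of all tested genes, so the count is no higher than that share with the block. That gene, Lmo1, was called as lower by DESeq2, which called 1.03% of all genes in either direction. Lmo1, a LIM-only protein that bridges bHLH complexes, was at 9.45 ± 1.43 CPM with BMP2 against 20.2 ± 1.9 in PBS, with groups that did not overlap. Its log2 fold change was -1.09 (SE 0.22), with edgeR adjusted p 0.276, and 0.0654 with the block. The log2 fold changes of Ssbp2, a single-stranded DNA-binding cofactor gene, and of Cbfa2t2, a corepressor gene, were -0.22 (SE 0.23) and -0.40 (SE 0.49). Cbfa2t2 was at 89.6, 28.6 and 24.2 CPM in PBS and 47.4, 32.3 and 28.3 with BMP2, so it was lower with BMP2 in batch 1 and higher in batches 2 and 3. Without the PBS library of batch 1 its log2 fold change was 0.44, and with the block it was -0.17. That of Ssbp2 was -0.40 without the BMP2 library of batch 1, -0.083 without that of batch 3 and -0.10 without the PBS library of batch 2.

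Genes reported as E-protein targets in other cells, chiefly cell cycle inhibitors and lymphoid genes, also showed 0 passing of 10 tested in either model, with a median of -0.28. By unadjusted p, 1 lay below 0.05 without the block and 4 with it, against 5.38% and 17.0% of all tested genes, and DESeq2 called 0. Cdkn1b, a cyclin-dependent kinase inhibitor, was at 412 ± 160 CPM with BMP2 against 676 ± 172 in PBS, and was lower in each batch (log2 fold change -0.72, SE 0.33, and -0.76, SE 0.15, with the block). Notch1, a receptor gene, was at 0.343 ± 0.246 against 1.68 ± 0.53 CPM. Its differences in batches 1, 2 and 3 were -1.40, -1.44 and -1.30 on the scale of log2(CPM + 0.5). The BMP2 libraries of these batches held 0.171, 0.234 and 0.624 CPM of Notch1, near or below the added 0.5. That addition makes the differences smaller and more alike than the levels themselves. The edgeR estimate for Notch1, which does not use it, was -2.26 on the log2 scale without the block and -2.40 with it. Ptcra, a gene of early T cells, was at 0.650, 0.204 and 0.0499 CPM with BMP2 against 3.12, 0.45 and 0.269 in PBS. Its log2 fold change was -2.11, but -0.31 without the PBS library of batch 1. The edgeR adjusted p with the block was 0.0846 for Cdkn1b, 0.0843 for Notch1 and 0.168 for Ptcra. Without the BMP2 library of batch 3 the log2 fold change of Cdkn1b was -0.46.

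The list of BMP and iron response genes was chosen with the higher level of several members known. Of its 22 genes, 11 passed the filter, which a gene can do through its BMP2 libraries alone. The median log2 fold change of these 11 was 2.91, and with no filter on low counts it was 2.26. Of the 11 tested genes, 0 passed without the block. Id2, Smad9 and Nog, the gene of the BMP antagonist noggin, rose with it, which makes 3 of 11 against 0.371% of all tested genes called as higher. DESeq2 called 7 of 11, against 1.03% of all genes in either direction. Of these 7, 6 were higher, among them the 3 ID genes, and 1, the osteoblast regulator Runx2, was lower, at 0.611 ± 0.102 CPM with BMP2 against 2.62 ± 1.42 in PBS. Smad9 had a log2 fold change of 3.69 (SE 0.35, edgeR adjusted p 0.0241) with the block, and Smad6 one of 3.47 (SE 0.59, adjusted p 0.0665). The within-batch differences of Smad9 on the scale of log2(CPM + 0.5) were 2.40, 3.18 and 4.06, and those of Atoh8 were 2.08, 3.27 and 3.94, which understate Atoh8 because its PBS level lies below the added 0.5. On that scale both were smallest in batch 1 and largest in batch 3. For Atoh8 this is no order of ratios. In batch 1, with 0 counts in PBS, its ratio has no upper limit, and the intervals of batches 2 and 3 overlap. The Tcf3, Tcf4 and Tcf12 differences were between -0.66 and 0.10 over all batches.

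**Figure D4:**
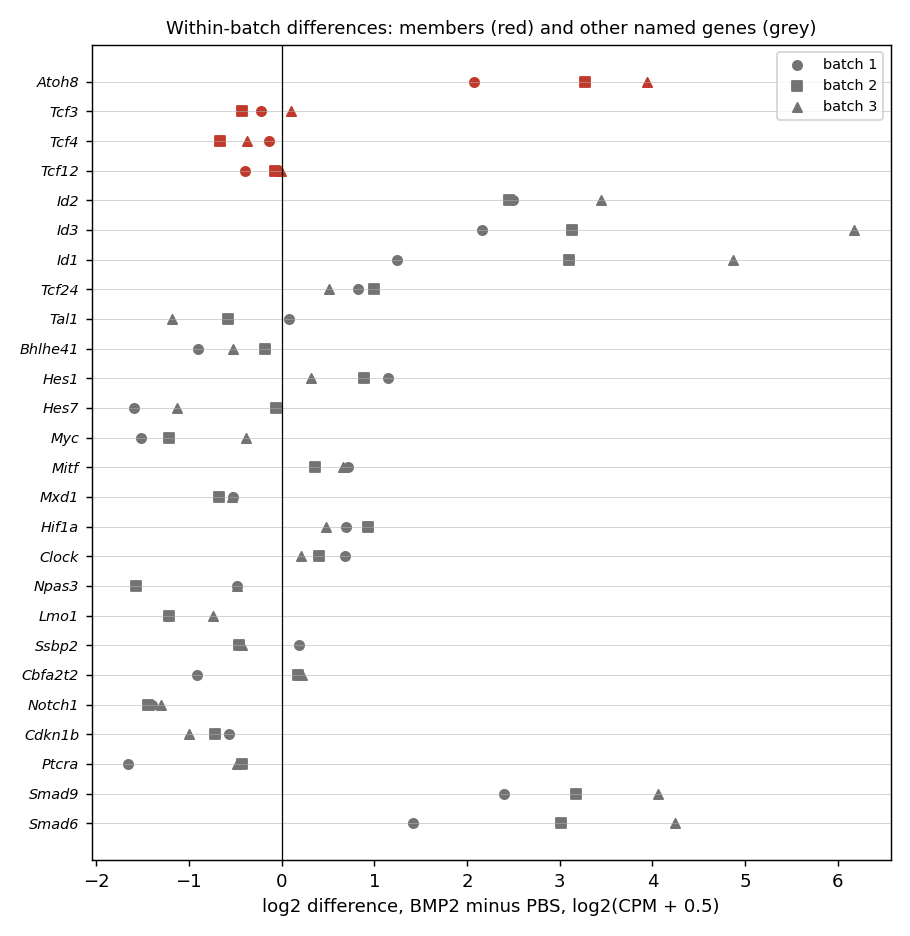
Difference between BMP2 and PBS in each batch, as log2(CPM + 0.5), for the 4 members (red) and the other named genes (grey). Atoh8 lies at 2.08 to 3.94, while the E-protein genes lie between -0.66 and 0.10.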

How the data were processed

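RNA was sequenced from 3 BMP2-treated and 3 PBS cultures of B16F10 spheroids. The authors deposited estimated counts per gene, and the submitters' processing notes name kallisto 0.44.0 and the build GRCm38.p6. Not given in the sources used here are the annotation, the strand setting and the step from transcripts to genes. Of 34981 genes, 34679 were matched to GENCODE M21 by identifier and 302 were not. Counts were rounded, filtered with edgeR's default and scaled by TMM, which left 12929 genes. They were tested with edgeR 4.0.16 (quasi-likelihood) in R 4.3.3, with treatment alone in the model, Benjamini-Hochberg adjustment over all genes and a threshold of 0.05. SE was worked back from the F statistic. Per the labels, libraries with the same replicate number came from 1 batch, and their deviations from group means correlated at 0.567, 0.338 and 0.612 within batches 1, 2 and 3. A fit with batch as a block was therefore added, with 2 residual degrees of freedom against 4. P-values measure only the spread between these cultures.

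Levels are TMM-scaled CPM, shown as mean ± SD. Totals of 27821911 to 36856498 put 3 counts at 0.0749 to 0.103 CPM. Intervals are exact binomial at 95% and, as the reads carry no molecular identifiers, cover counting error only. Length per kb used exons summed and, added after the data were seen, the median coding transcript. Members and gene lists were chosen with earlier results of these data known. Named genes are the members, the ID genes, up to 3 of each list with the smallest p, and the genes with the highest correlation to each member (8 for Atoh8 and 4 for each E-protein gene, mean of at least 1 CPM), of which 1 is not reported here. Nog, Runx2, Gpr143, Bhlhe40 and Ascl4 were named after their values were seen. Alternatives were keeping all genes with counts, keeping genes whose mean reached 100 counts, DESeq2 1.42.0 (size factors and Wald test), quantile normalization with limma 3.58.1, the block, and leaving out each library or batch. The fit was also run on simulated counts with a common spread, no batch effect and no low-count genes. That run checked the code only and does not cover the batch differences or low counts of these data.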

Additional observations from a re-analysis of the deposited data

How the results depend on the processing

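Results were recomputed under 17 alternatives. Tcf3, Tcf4 and Tcf12 kept log2 fold changes below 0 and an adjusted p above the threshold in each of them. Leaving out 1 library gave -0.34 to -0.016 for Tcf3, -0.56 to -0.19 for Tcf4 and -0.27 to -0.057 for Tcf12. Leaving out 1 batch with the block gave an adjusted p of 0.0641 at the lowest for Tcf4, without batch 1. Atoh8 kept its direction throughout, at 5.10 to 6.80 without 1 library. Its adjusted p was above the threshold in the edgeR fit without the block and with the default filter. With the replicate block it was below the threshold (log2 fold change 5.74). The same held with the block and DESeq2 size factors (5.72) and with the block and no filter (5.74). Of the settings without the block, no filter alone (5.65) and the DESeq2 Wald test (5.69) also put it below the threshold. Leaving out 1 batch with the block gave 5.33 to 6.78, also below it. As Atoh8 was chosen on this comparison, that is no test.

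Over all genes, 1 was called higher and 5 lower without the block, and 48 and 47 with the replicate block. The counts higher and lower were 19 and 16 with no filter, 62 and 68 with the DESeq2 Wald test, 47 and 51 with the block and DESeq2 size factors, and 223 and 277 with the block and no filter. They were 0 higher with a mean of at least 100 counts and 2 higher with quantile normalization. Leaving out 1 library gave 0 to 5 higher and 2 to 5 lower, and leaving out 1 batch with the block 9 to 223 and 18 to 308. Fits without a batch leave 1 residual degree of freedom, so the larger counts there are no firmer. Genes of the other lists passing numbered 0 without the block, 3 with the replicate block, alone or with DESeq2 size factors, 5 with no filter, 9 with the DESeq2 Wald test and 15 with the block and no filter. They numbered 0 to 3 without 1 library and 2 to 12 without 1 batch. The 3 with the replicate block alone were Id2, Smad9 and Nog. Of the 9 with the Wald test, 7 were of the BMP and iron response list, chosen with the higher level of several members known. The others were Myc and Lmo1. Of all tested genes, 0.735% passed with the replicate block and 1.03% with the Wald test. The counts over all genes given above also rose with the block, with no filter and with the Wald test, so the list counts are to be read beside them.

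The median of E-protein cofactors was 0.0013 with no filter and 0.0082 without PBS replicate 2, so its sign is not fixed. It ranged from -0.14 to 0.0088 with a batch left out and from -0.12 to 0.0082 with a library left out. The median of reported E-protein targets was -0.53 with no filter and -0.59 with the block and no filter, and -0.38 to -0.11 without 1 library. That of the HES, HEY and DEC genes was -0.61 to -0.087 without 1 library and -0.54 to -0.072 without 1 batch. That of the leucine zipper genes was -0.28 to -0.057 without 1 library, the latter without PBS replicate 1. That of the bHLH-PAS genes was -0.47 to -0.17 without 1 library and -0.35 to -0.21 without 1 batch. That of the 2 tested class II partners was -0.13 to 0.65 without 1 batch. These 2 genes gave no value at a mean of at least 100 counts. The log2 difference in the ratio of ID to E-protein genes was 2.73 to 3.47 without 1 library. Levels of Atoh8 in PBS rest on 11 counts in all, so their spread cannot be resolved at this depth.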
